A study of Mus musculus with 20 samples.

Results

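The 37 genes described here are marker genes of T cells, B cells and natural killer (NK) cells, taken by name from a list of mouse symbols out of the 45318 genes counted in the series. They fall into 9 roles: the T cell receptor complex (Cd3e, Cd3d, Cd3g, Cd247), the coreceptors (Cd4, Cd8a, Cd8b1), T cell surface, costimulatory and checkpoint receptors (Cd2, Cd5, Cd6, Cd28, Ctla4, Icos, Pdcd1), T cell kinases and adaptors (Lck, Zap70, Lat, Sh2d2a, Txk), B cell genes (Cd79a, Cd79b, Ms4a1, Pax5, Blk), NK cell receptors (Ncr1, Klrb1c, Klrk1, Klrd1), cytotoxic granule genes (Nkg7, Gzma, Gzmb, Prf1), transcription factors (Eomes, Tbx21, Foxp3) and cytokine receptor subunits (Il2rb, Il2rg). All 37 were matched to a counted gene ID. Of these, 33 passed the filter on low counts and were tested; Ms4a1, Pax5, Blk and Gzma did not pass. A gene could pass through a single group in which it was well counted, so the 33 are not a random draw from the 37.

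Polyadenylated RNA was sequenced from 20 samples of mammary tumors and normal mammary gland, all from mice of the FVB strain. Neu-NDL organoids (n = 3) came from tumors of MMTV-Neu-NDL mice and had been cultured for 6 days. PyMT organoids came from tumors of MMTV-PyMT mice and were taken after 6 days of culture (n = 3 with day 6 in the title and n = 2 without a day in the title, called undated here) or on day 0, straight after preparation (n = 3). PyMT sections (n = 3, MMTV-PyMT) and Neu-NT sections (n = 3, MMTV-Cre;Flox-Neo-Neu-NT) were uncultured cryosections of tumors. WT organoids (n = 3) came from the mammary gland of wild type mice and had been cultured for 6 days. The growth protocol given with every sample names matrigel and FGF2 and speaks of MMTV-PyMT tumors. The MMTV promoter drives its transgene mainly in mammary epithelium. No library of uncultured normal gland was analysed here, so tumor, genotype and culture cannot be told apart in any comparison of sections or day 0 organoids with WT organoids. Sections were also not taken through organoid preparation, so in comparisons of sections with WT organoids preparation cannot be told apart from these either.

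T cells read antigen through a receptor that signals by way of the CD3 chains. The coreceptor CD4 marks helper and regulatory T cells, CD8 marks cytotoxic T cells, and Lck and Zap70 are the kinases that carry the signal onward. NK cells lack an antigen receptor and act through activating and inhibitory receptors; like cytotoxic T cells they kill with perforin and granzymes, and both answer to cytokines through the receptor subunits Il2rb and Il2rg. B cells signal through CD79, the partner of membrane immunoglobulin. In mammary tumors these cells sit in the stroma or among the tumor cells, and organoid preparation enriches epithelium over single stromal and blood cells.

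The libraries held between 17478357 and 48341438 reads on genes, and the 37 genes held between 68 and 1794 of those reads in a library. Levels are given in CPM, read counts scaled to a common library size after TMM adjustment. One read in a library is worth about 0.0202 to 0.0542 CPM here, so a level of a few hundredths stands for a single read, and a level of 0 does not show that a gene is silent. A pair of libraries stood apart from the others of their groups. The library labelled PyMT organoids day 6 replicate 3 correlated best with PyMT section replicate 3 (Pearson r = 0.991 in log2 CPM over the 18698 tested genes, the highest of all 190 pairs of libraries), and less with the other day 6 libraries (r = 0.868 and 0.906). It held 1254 reads of Hbb-bs, a beta globin of red blood cells, against 0 to 2 in the other 6 day PyMT libraries. Neu-NT section replicate 3 correlated at r = 0.904 and 0.909 with the other Neu-NT sections, which correlated at 0.98 with each other. Counts of calls among the 37 genes are given with and without these libraries where they move by over 1.5 times. The counts for other gene lists are from all 20 libraries and were not refitted without this pair. Shares of all genes called are given for the main fit only, so counts from other fits have no share beside them.

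Summed over the 37 genes, the level was 18.8, 8.07 and 6.95 CPM in Neu-NDL organoids, 3.85, 3.65 and 13.5 CPM in day 6 PyMT organoids, 3.46 and 2.51 CPM in undated PyMT organoids, and 12.8, 15.7 and 10.2 CPM in day 0 PyMT organoids (replicates in the order of their numbers, here and below). It was 47.9, 22.8 and 13.3 CPM in PyMT sections and 15.6, 21.1 and 83.9 CPM in Neu-NT sections, against 3.69, 3.86 and 7.62 CPM in WT organoids. Every section and every day 0 library thus lay above every WT library, while the Neu-NDL and day 6 PyMT organoids overlapped with WT and both undated libraries lay below it. The library labelled PyMT organoids day 6 replicate 3 was the one cultured PyMT library above the WT range.

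**Figure D1:**
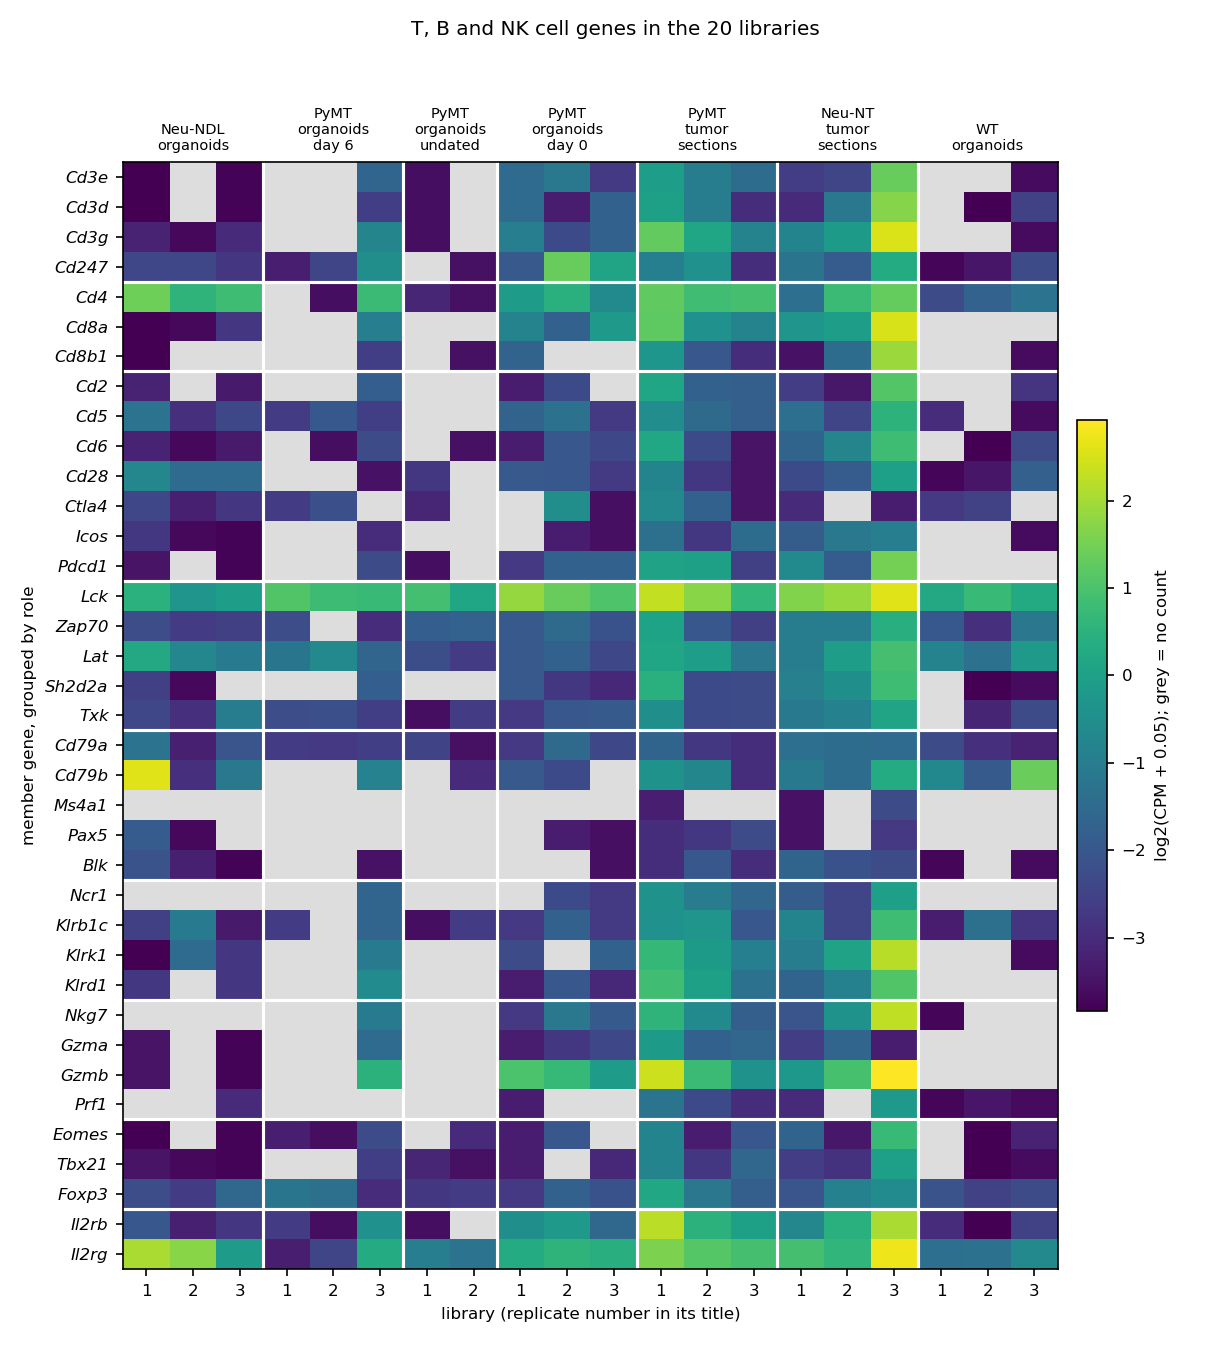
Level of each of the 37 genes (rows, grouped by role) in each of the 20 libraries (columns, grouped as labelled), as log2(CPM + 0.05); grey cells had no read. Sections and day 0 organoids hold reads for nearly all T and NK cell genes, the 6 day PyMT organoids hold none for 14 genes outside the library labelled day 6 replicate 3, and Lck is counted in all 20 libraries.

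The share of reads among the 37 genes also differed, in reads not corrected for gene length. In the 4 cultured PyMT libraries other than the one labelled day 6 replicate 3, Lck alone held 48.7% of the 349 reads on the 37 genes, 14 genes had no read and 23 had 3 or fewer. In WT organoids Lck, Cd79b, Lat, Il2rg and Cd4 held 72.4% of 572 reads, and Cd8a, Gzma, Gzmb, Klrd1, Ms4a1, Ncr1, Pax5 and Pdcd1 had none. In both kinds of section each of the 37 genes had at least 1 read, and the top 5 held 43.6% of 2585 reads in PyMT sections and 39.5% of 2502 reads in Neu-NT sections. Per kilobase of exon, the highest mean level was that of Gzmb in PyMT sections (1.76 CPM per kb) and in Neu-NT sections (2.37 CPM per kb), and that of Cd79b in WT organoids (0.776 CPM per kb).

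**Figure D2:**
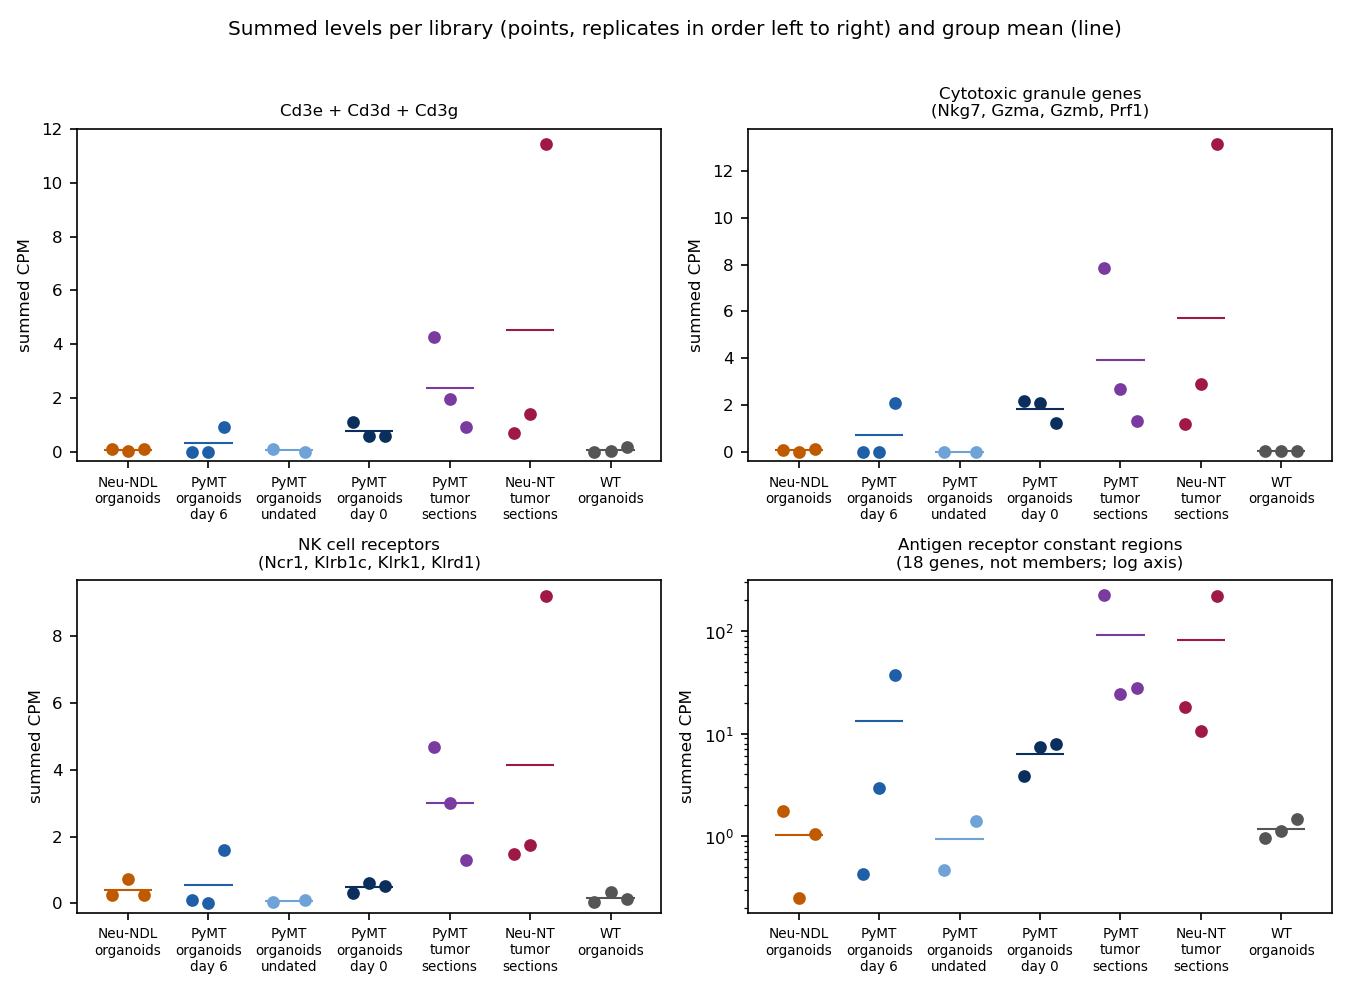
Summed CPM per library (points) and group mean (lines) for the CD3 chains, the cytotoxic granule genes, the NK cell receptors and, on a log axis, 18 antigen receptor constant region genes that are not among the 37. CD3 chains summed to 0.911 to 4.27 CPM in PyMT sections, 0.718 to 11.4 CPM in Neu-NT sections and 0.603 to 1.09 CPM in day 0 organoids, against 0 to 0.184 CPM in WT organoids.

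Tumor sections were compared with cultured WT organoids to ask which of these genes were higher in tumor tissue. Genes higher in both kinds of section included the CD3 chains Cd3e and Cd3g, the CD8 chain Cd8a, the PD-1 gene Pdcd1, the NK cell receptors Ncr1, Klrk1 and Klrd1, and the granule genes Nkg7 and Gzmb, while none of the tested B cell genes was called. In PyMT sections 14 of the 33 tested genes were higher than in WT organoids and none was lower; over all 18698 genes 6.45% were called higher and 6.05% lower. In Neu-NT sections 21 of 33 were higher and none was lower, against 10.5% of all genes called higher and 8.47% called lower. The median log2 fold change of the 33 was 3.37 in PyMT sections and 4.14 in Neu-NT sections (4.09 with genes that had no WT read set at their bound), against 0.03 over all genes in each comparison. Both comparisons use the same WT libraries. The filter was run over all 20 libraries, so a gene with few or no WT reads could be tested because sections held its reads. Cd8a, Pdcd1, Ncr1, Klrd1 and Gzmb, with no WT read, are such genes, and their folds enter the medians and the counts of calls. The medians and shares of the 33 are therefore not those of genes chosen without regard to their level in sections. With only the compared libraries fewer of them passed the filter, as given with the alternatives below. In 20 of the 33 all PyMT sections, and in 23 all Neu-NT sections, lay above all WT libraries. The same count was not made over all genes, so these numbers have no share beside them. From bulk RNA, more cells of a type and more RNA per cell cannot be told apart.

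The calls in PyMT sections rested on few libraries, and the share of all genes called without each library is not given here. Without PyMT section replicate 1 none of the 33 was called, without replicate 3 there were 8 calls, and without WT replicate 1, 2 or 3 there were 0, 0 and 2. In Neu-NT sections there were 11 calls without Neu-NT replicate 3 (Cd3e, Cd3d, Cd5, Cd6, Txk, Ncr1 and Il2rg lost theirs, and others no longer passed the filter), and 10, 7 and 13 without WT replicates 1, 2 and 3; Cd3g, Cd8a, Icos, Pdcd1, Gzmb and Il2rb kept their call under every alternative run for them.

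Of the T cell receptor complex, Cd3g encodes the gamma chain of CD3. It had 2.40, 1.05 and 0.515 CPM in PyMT sections and 0.529, 0.856 and 5.80 CPM in Neu-NT sections, against 0, 0 and 0.0307 CPM in WT organoids. All sections lay above all WT libraries, in which Cd3g had 1 read. The ratio of reads, scaled to library size, was 177 (95% counting interval 31.2 to 7059) for PyMT sections, with an edgeR adjusted p of 0.017. For Neu-NT sections the scaled ratio was 252 (44.5 to 10020), with an edgeR adjusted p of 0.0053. Cd3d, the delta chain, had 0.961, 0.452 and 0.0792 CPM in PyMT sections and 0.0756, 0.406 and 3.16 CPM in Neu-NT sections, against 0, 0.0214 and 0.123 CPM in WT organoids. Its groups overlapped, and it was higher in Neu-NT sections (log2 fold change 4.62 ± 1.39 SE, edgeR adjusted p = 0.03) but not called in PyMT sections (3.39 ± 1.37, adjusted p = 0.11). Cd247, the zeta chain that carries most of the receptor's signalling motifs, had 0.480, 0.704 and 0.0792 CPM in PyMT sections and 0.378, 0.225 and 1.19 CPM in Neu-NT sections, against 0.0258, 0.0427 and 0.154 CPM in WT organoids, and was called in neither. Cd3e, the epsilon chain, was higher in both, with 51 reads in PyMT sections and 54 in Neu-NT sections, against 1 in WT organoids. Its highest level, 2.485 CPM, was that of Neu-NT section replicate 3, where the mean of the Neu-NT sections was 0.911 CPM.

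The CD3 genes are neighbours on chromosome 9 (GRCm38, positions from GENCODE M21). Cd3g (ENSMUSG00000002033.10, 9:44969572-44980431, minus strand) and Cd3d (ENSMUSG00000032094.7, 9:44981786-44987339, plus strand) lie 1354 bases apart, start to start, and are read in opposite directions, and Cd3e (9:44998740-45009627, minus strand) lies 11400 bases beyond Cd3d. The 250 bases before each RefSeq start (GRCm38.p6) are printed 5′ to 3′ for this divergent pair, since both genes were called in Neu-NT sections. Capitals mark a match to the Ets core AGGAAG on either strand.

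Cd3g, chr9:44980432-44980681, minus strand: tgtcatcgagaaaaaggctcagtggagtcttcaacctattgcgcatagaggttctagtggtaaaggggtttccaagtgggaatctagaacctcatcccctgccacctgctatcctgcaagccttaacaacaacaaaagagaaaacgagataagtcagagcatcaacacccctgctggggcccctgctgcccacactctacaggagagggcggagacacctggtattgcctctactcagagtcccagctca

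Cd3d, chr9:44981536-44981785, plus strand: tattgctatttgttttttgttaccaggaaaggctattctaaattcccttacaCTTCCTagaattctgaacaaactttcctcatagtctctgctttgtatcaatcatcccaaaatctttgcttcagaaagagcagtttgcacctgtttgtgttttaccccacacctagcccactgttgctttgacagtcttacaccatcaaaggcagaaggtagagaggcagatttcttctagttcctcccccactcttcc

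Of the coreceptors, Cd8a encodes the alpha chain of CD8. It had 2.32, 0.704 and 0.515 CPM in PyMT sections and 0.756, 0.901 and 5.64 CPM in Neu-NT sections, against no read in any WT library. Against a floor of 3 reads over the WT group it was at least 46.5-fold higher in PyMT sections (114 reads, edgeR adjusted p = 0.018) and at least 95.8-fold higher in Neu-NT sections (149 reads, adjusted p = 0.0059). Cd8b1, the CD8 beta chain and the neighbour of Cd8a at a gap of 35932 bases on chromosome 6, had 0.774, 0.201 and 0.0792 CPM in PyMT sections and 0.0378, 0.315 and 3.68 CPM in Neu-NT sections, against 0, 0 and 0.0307 CPM in WT organoids. It was higher in Neu-NT sections (adjusted p = 0.02) but not called in PyMT sections (adjusted p = 0.091), and all sections lay above all WT libraries. Cd4, which is also made by some macrophages and dendritic cells, had 2.38, 1.76 and 1.86 CPM in PyMT sections and 0.340, 1.67 and 2.43 CPM in Neu-NT sections, against 0.155, 0.256 and 0.369 CPM in WT organoids. Neu-NT section replicate 1 lay within the WT range, and Cd4 was not called in PyMT sections (log2 fold change 2.93 ± 1.06, adjusted p = 0.077) or in Neu-NT sections (2.49 ± 1.05, adjusted p = 0.11).

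Among the surface and checkpoint receptors, Pdcd1 encodes PD-1, an inhibitory receptor of activated T cells. It had 0.988, 0.955 and 0.119 CPM in PyMT sections and 0.605, 0.225 and 2.80 CPM in Neu-NT sections, against no read in WT organoids. It was at least 27.1-fold higher in PyMT sections (adjusted p = 0.017) and at least 47.6-fold higher in Neu-NT sections (adjusted p = 0.0053). Cd5, which dampens receptor signalling, had 0.641, 0.301 and 0.238 CPM in PyMT sections and 0.340, 0.135 and 1.40 CPM in Neu-NT sections, against 0.0774, 0 and 0.0307 CPM in WT organoids, and was higher in both (log2 fold change 3.37 ± 1.01 and 3.99 ± 1.01). Cd6, its neighbour on chromosome 19 and a related receptor, had 1.12, 0.151 and 0.0396 CPM in PyMT sections and 0.265, 0.541 and 1.71 CPM in Neu-NT sections, against 0, 0.0214 and 0.154 CPM in WT organoids. It was higher in Neu-NT sections (3.83 ± 1.23, adjusted p = 0.039) and not called in PyMT sections (2.98 ± 1.21, adjusted p = 0.11). Icos, a costimulatory receptor, was higher in both kinds of section, with 23 and 24 reads against 1 in WT organoids. Cd28, the main costimulatory receptor, Ctla4, its inhibitory counterpart, and Cd2, an adhesion receptor, were called in neither, and Ctla4 had opposite signs in PyMT sections (log2 fold change 1.85 ± 1.25) and Neu-NT sections (-0.82 ± 1.54, 3 reads against 10 in WT organoids).

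Among the T cell kinases and adaptors, Lck, Zap70 and Lat had smaller log2 fold changes over WT organoids than Sh2d2a and Txk in both kinds of section. Lck, the kinase bound to CD4 and CD8, had 4.89, 3.27 and 1.5 CPM in PyMT sections and 3.06, 3.65 and 5.95 CPM in Neu-NT sections, against 1.14, 1.58 and 1.17 CPM in WT organoids. It was counted in every library of the series, and was higher in Neu-NT sections (log2 fold change 1.70 ± 0.44, adjusted p = 0.014) but not called in PyMT sections (1.31 ± 0.43, adjusted p = 0.057). Zap70, the kinase that binds the phosphorylated CD3 chains, had 1.01, 0.201 and 0.119 CPM in PyMT sections and 0.454, 0.451 and 1.29 CPM in Neu-NT sections, against 0.206, 0.0854 and 0.400 CPM in WT organoids. Lat, the adaptor that Zap70 phosphorylates, had 1.04, 0.904 and 0.396 CPM in PyMT sections and 0.454, 0.901 and 1.86 CPM in Neu-NT sections, against 0.516, 0.363 and 0.830 CPM in WT organoids. Both overlapped with WT in PyMT sections, and neither was called in either comparison. Sh2d2a, an adaptor of activated T cells, was higher in both (56 and 61 reads, against 2 in WT organoids), and Txk, a Tec family kinase, in Neu-NT sections (3.12 ± 0.90, adjusted p = 0.024).

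Of the B cell genes only Cd79a and Cd79b were tested, and neither was called in either kind of section. Cd79a, the alpha chain of the B cell receptor's signalling pair, had 0.267, 0.101 and 0.0792 CPM in PyMT sections and 0.340, 0.315 and 0.311 CPM in Neu-NT sections, against 0.155, 0.0854 and 0.0615 CPM in WT organoids. Cd79b, its beta chain, had 0.721, 0.553 and 0.0792 CPM in PyMT sections and 0.416, 0.315 and 1.19 CPM in Neu-NT sections, against 0.568, 0.213 and 2.55 CPM in WT organoids, with a log2 fold change below 0 in both. Blk, a B cell Src family kinase that was not tested, had 0.0801, 0.201 and 0.0792 CPM in PyMT sections and 0.265, 0.180 and 0.155 CPM in Neu-NT sections, against 0.0258, 0 and 0.0307 CPM in WT organoids. Ms4a1, which encodes CD20, had 6 reads in the whole series, and Pax5, the transcription factor of B cell identity, had 26.

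Of the NK cell receptors, Klrk1 encodes NKG2D, an activating receptor shared with CD8 T cells. It had 1.55, 0.854 and 0.475 CPM in PyMT sections and 0.454, 0.991 and 4.50 CPM in Neu-NT sections, against 0, 0 and 0.0307 CPM in WT organoids. The ratio of reads, scaled to library size, was 124 (95% counting interval 21.8 to 4969) for PyMT sections, with an edgeR adjusted p of 0.029. For Neu-NT sections the scaled ratio was 210 (37 to 8374), with an edgeR adjusted p of 0.0098. Klrd1 encodes CD94 and lies 11547 bases from Klrk1. It had 1.74, 0.955 and 0.356 CPM in PyMT sections and 0.265, 0.496 and 2.07 CPM in Neu-NT sections, against no read in WT organoids, and was at least 40.0-fold higher in PyMT sections and at least 37.2-fold higher in Neu-NT sections. Klrb1c, the NK1.1 gene, had 0.694, 0.754 and 0.198 CPM in PyMT sections and 0.529, 0.135 and 1.71 CPM in Neu-NT sections, against 0.0516, 0.342 and 0.0922 CPM in WT organoids, and was called in neither. Ncr1, which encodes the NK receptor NKp46, was higher in both (43 and 27 reads against none), at least 19.0-fold and 17.0-fold.

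The granule gene Gzmb, which encodes granzyme B, had the most reads of the granule genes. It had 5.21, 1.66 and 0.713 CPM in PyMT sections and 0.794, 1.89 and 7.51 CPM in Neu-NT sections, against no read in WT organoids. It was at least 99.4-fold higher in PyMT sections (246 reads, edgeR adjusted p = 0.02) and at least 134-fold higher in Neu-NT sections (208 reads, adjusted p = 0.0096). Nkg7, a membrane protein of cytotoxic granules, had 1.42, 0.603 and 0.238 CPM in PyMT sections and 0.189, 0.721 and 4.76 CPM in Neu-NT sections, against 0.0258, 0 and 0 CPM in WT organoids, and was higher in both (adjusted p = 0.044 and 0.014). Gzma, granzyme A, had 0.854, 0.251 and 0.277 CPM in PyMT sections and 0.113, 0.270 and 0.0518 CPM in Neu-NT sections, against no read in WT organoids; it was not tested, and with no filter it was called higher in PyMT sections. Neu-NT section replicate 3 thus held the highest level of Gzmb and Nkg7 but the lowest of Gzma among all sections. Gzma had 10 reads over all Neu-NT sections, and its level in replicate 3 stands for a single read. Prf1, perforin, was called in neither.

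The region before the RefSeq start of Gzmb (GRCm38.p6, chr14:56262335-56262584, minus strand) is printed because Gzmb was called in both kinds of section and in day 0 organoids; capitals mark matches to the Runx core TGTGGT and the T-box motif TCACAC on either strand.

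Gzmb: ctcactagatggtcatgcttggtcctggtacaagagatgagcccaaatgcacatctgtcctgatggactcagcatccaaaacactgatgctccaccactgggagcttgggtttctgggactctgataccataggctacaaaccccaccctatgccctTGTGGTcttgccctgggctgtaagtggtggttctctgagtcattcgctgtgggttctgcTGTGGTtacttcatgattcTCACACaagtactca

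RefSeq held such windows for 25 of the 37 genes (31 windows, as some genes have several starts). The Runx core was found in 38.7% of these windows, against 14.1% of 32851 windows over all genes, the Ets core in 61.3% against 29.5%, and the T-box motif in 22.6% against 12.3%. These are matches of letters, not bound sites.

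Of the transcription factors, Eomes and Tbx21 encode the T-box factors of NK and cytotoxic T cells. Eomes had 0.534, 0.0503 and 0.198 CPM in PyMT sections and 0.265, 0.0451 and 1.60 CPM in Neu-NT sections, against 0, 0.0214 and 0.0615 CPM in WT organoids, and was higher in Neu-NT sections (adjusted p = 0.033). Tbx21 had 0.534, 0.101 and 0.277 CPM in PyMT sections and 0.113, 0.0901 and 0.932 CPM in Neu-NT sections, against 0, 0.0214 and 0.0307 CPM in WT organoids, and was higher in both (adjusted p = 0.041 and 0.024). Foxp3, the factor of regulatory T cells, had 1.12, 0.402 and 0.238 CPM in PyMT sections and 0.189, 0.496 and 0.621 CPM in Neu-NT sections, against 0.181, 0.128 and 0.154 CPM in WT organoids. All sections lay above all WT libraries in Foxp3, and it was called in neither comparison (adjusted p = 0.065 and 0.14). Foxp3 overlaps Ccdc22 and Ppp1r3f on the opposite strand, and the strand setting of the counting is not given in the sources used here.

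The cytokine receptor subunits were among the best counted of the 37. Il2rb, the beta subunit shared by the receptors for IL-2 and IL-15, had 4.62, 1.36 and 0.951 CPM in PyMT sections and 0.567, 1.31 and 4.09 CPM in Neu-NT sections, against 0.0774, 0.0214 and 0.123 CPM in WT organoids. The groups did not overlap, and Il2rb was higher in PyMT sections (log2 fold change 4.95 ± 1.10, adjusted p = 0.014) and in Neu-NT sections (4.72 ± 1.10, adjusted p = 0.0087). Il2rg, the common gamma chain of several cytokine receptors, had 2.94, 2.16 and 1.86 CPM in PyMT sections and 1.85, 1.49 and 6.63 CPM in Neu-NT sections, against 0.336, 0.363 and 0.584 CPM in WT organoids. It was higher in Neu-NT sections (2.95 ± 0.85, adjusted p = 0.024) and not called in PyMT sections (2.44 ± 0.83, adjusted p = 0.065), although all sections lay above all WT libraries.

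**Figure D3:**
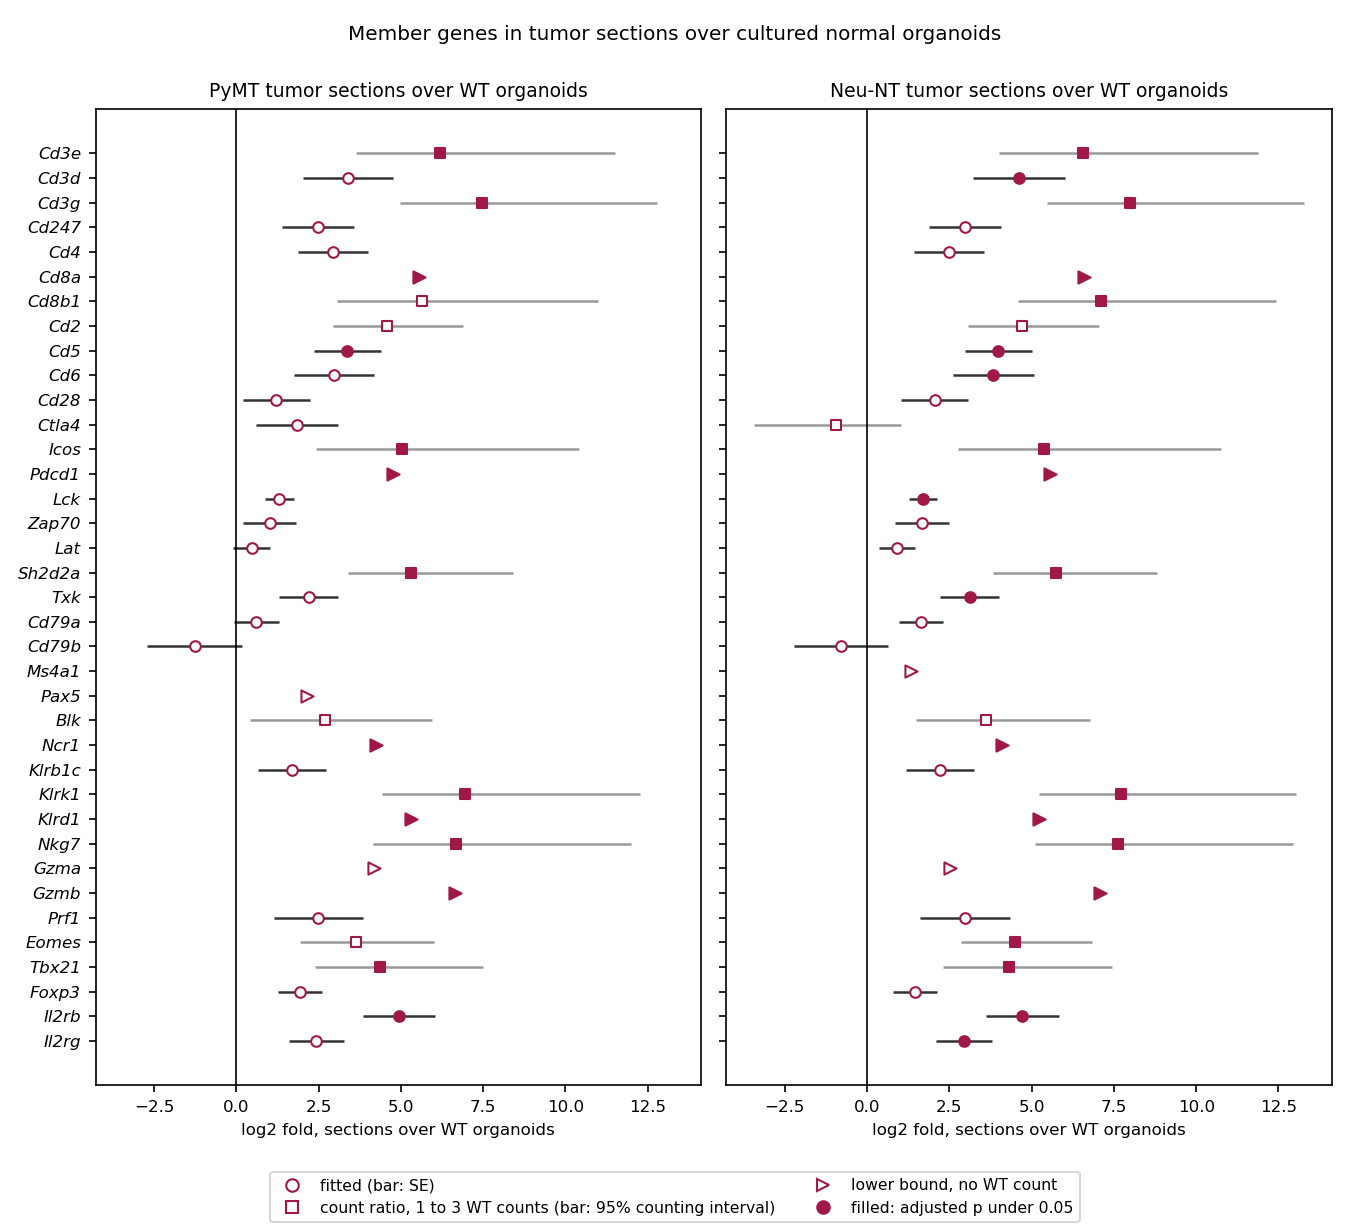
Log2 fold of each gene in PyMT sections (left) and Neu-NT sections (right) over WT organoids. Circles are fitted values with their SE, and triangles are lower bounds where WT had no read. Squares are ratios of reads, scaled to library size, with the 95% counting interval. They are used where WT had 1 to 3 reads, and for Ctla4 on the right, where Neu-NT sections had 3 and WT 10. Filled symbols passed the adjusted p of 0.05. Ms4a1 on the left and Pax5 on the right have no symbol because both groups were at or under 3 reads. Cd79b lies left of 0 in both panels.

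Further lymphocyte genes were counted by list. Of 24 tested T cell genes outside the 37, 7 were higher in PyMT sections and 10 were higher and 1 lower in Neu-NT sections. They included Ptprc (log2 fold change 4.22 ± 1.03 in PyMT sections and 4.07 ± 1.02 in Neu-NT sections), which encodes CD45 of white blood cells. Havcr2 (4.13 ± 1.05 and 4.39 ± 1.06), which encodes TIM-3 and is also made by macrophages, and Lag3 (1.33 ± 0.32 and 1.93 ± 0.32), an inhibitory receptor, were also higher in both. The one that was lower in Neu-NT sections was the costimulatory receptor Cd27 (-2.47 ± 0.71). Of 11 other NK and cytotoxic genes, 5 were higher and 1 lower in PyMT sections, and 9 higher and 1 lower in Neu-NT sections. Ctsw, a protease of cytotoxic cells, was higher in both (1.71 ± 0.54 and 2.46 ± 0.55), and Itga2, a collagen receptor that epithelial cells also make, was lower in both (-2.07 ± 0.61 and -2.23 ± 0.61).

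Antigen receptor constant region genes are transcribed by B, plasma and T cells. Of the 14 that were tested, 7 were higher in PyMT sections and 10 in Neu-NT sections. Igha, the heavy chain of IgA, had 130, 7.89 and 13.5 CPM in PyMT sections and 1.25, 1.62 and 83.8 CPM in Neu-NT sections, against 0.0516, 0 and 0.0307 CPM in WT organoids. Igkc, the kappa light chain, had 63.5, 4.17 and 7.53 CPM in PyMT sections and 1.25, 1.35 and 82.3 CPM in Neu-NT sections, against 0, 0.0214 and 0 CPM in WT organoids. Most of these reads came from PyMT section replicate 1 and Neu-NT section replicate 3. Ighm, the heavy chain of IgM, varied less, with 13.3, 8.79 and 4.87 CPM in PyMT sections and 13.0, 5.05 and 25.5 CPM in Neu-NT sections, against 0, 0.0640 and 0 CPM in WT organoids. Of 13 other B and plasma cell genes, 4 were higher and 1 lower in PyMT sections, and 3 higher and 2 lower in Neu-NT sections. Jchain, which joins IgA and IgM units, was higher in both (log2 fold change 6.99 ± 1.89 and 6.24 ± 1.84), with 28.8, 1.96 and 3.64 CPM in PyMT sections and 0.340, 0.631 and 19.6 CPM in Neu-NT sections, against 0.0258, 0.0854 and 0.154 CPM in WT organoids. Blnk, an adaptor of B cells and macrophages, was also higher in both (3.65 ± 0.90 and 3.60 ± 0.90). Pou2af1, a coactivator of B cells, was lower in both (-3.69 ± 0.80 and -5.76 ± 0.90), with 0.753 to 3.22 CPM in PyMT sections and 0.315 to 0.57 CPM in Neu-NT sections, against 20.6 to 26.2 CPM in WT organoids. Spib, an Ets factor, was lower in Neu-NT sections (-2.68 ± 0.86). In the same WT libraries Ms4a1 and Pax5 had no read, and Cd79a and Cd79b had means of 0.101 and 1.11 CPM. Which cells held the reads of Pou2af1 and Spib was not tested.

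Markers of other cells moved with these genes, and their part in the result was not tested. Macrophage markers summed to 783 to 1205 CPM in PyMT sections and 744 to 2233 CPM in Neu-NT sections, against 185 to 295 CPM in WT organoids, and 7 and 9 of 14 were higher. Of 8 dendritic cell markers 4 and 6 were higher, of 7 tested neutrophil and mast cell markers 2 and 3, and of 4 tested red blood cell markers 4 and 3. No endothelial or fibroblast marker was called in either comparison, although endothelial markers summed to 133 to 214 CPM in PyMT sections and 96.7 to 159 CPM in Neu-NT sections, against 13.1 to 65.8 CPM in WT organoids, and fibroblast markers to 1983 to 5986 CPM in PyMT sections and 268 to 2710 CPM in Neu-NT sections, against 449 to 820 CPM in WT organoids. Of 8 epithelial markers 1 was lower in Neu-NT sections. Of 8 markers of lymph node stroma and vessels, 3 were tested and 1, Glycam1, was higher in Neu-NT sections. Glycam1, which lactating mammary epithelium also makes, had 43, 38 and 78153 reads in Neu-NT sections. Ccl21a, a chemokine of lymph node stroma, had no read in any library, Ccl19 had 1 in all, and Madcam1, of lymph node vessels, had 4 to 6 in Neu-NT sections.

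PyMT sections were then compared with Neu-NT sections directly. None of the 33 genes was called higher or lower by edgeR, against 4.57% and 5.13% of all genes; 0 passed an unadjusted p under 0.05, and DESeq2 called 0. The median log2 fold change was -0.51 (all genes -0.01), and 27 of the 33 values were below 0. Cd79a was the one gene in which the groups did not overlap, with all PyMT sections below all Neu-NT sections. Overlap was not counted over all genes. Of other lymphocyte genes, Gzmm (-2.98 ± 0.68, edgeR adjusted p = 0.014), a granzyme, and Styk1 (-1.80 ± 0.41, adjusted p = 0.014), a kinase also found outside lymphocytes, were lower in PyMT sections.

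Day 0 organoids were taken after organoid preparation and before culture. Cd247, Cd8a and Gzmb were higher in day 0 PyMT organoids than in WT organoids, 3 of 33, against 5.54% of all genes called higher; none was lower, against 5.73% of all genes. At an unadjusted p under 0.05 there were 13, and the median log2 fold change was 1.60 (all genes 0.00). Cd8a had 0.520, 0.253 and 0.816 CPM in day 0 organoids, against no read in WT organoids, and was at least 20.9-fold higher (38 reads, edgeR adjusted p = 0.034). Gzmb had 1.98, 1.57 and 0.887 CPM in day 0 organoids, against no read in WT organoids, and was at least 58.1-fold higher (94 reads, adjusted p = 0.028). Cd247 had 0.208, 2.48 and 1.03 CPM in day 0 organoids, against 0.0258, 0.0427 and 0.154 CPM in WT organoids (log2 fold change 4.05 ± 1.10, adjusted p = 0.029). Its reads were not in step with its partner chains, since Cd3g had 0.468, 0.152 and 0.248 CPM and Cd3d had 0.312, 0.0505 and 0.248 CPM in the same libraries. Cd247 overlaps Pou2f1 on the opposite strand, so reads of that gene cannot be told apart without a known strand setting. Without any 1 of the WT libraries, or without day 0 replicate 2, none of the 3 was called; without replicate 1 only Cd247 and without replicate 3 only Gzmb was. DESeq2 called 7 genes higher, and edgeR called 12 without the 2 libraries that stand apart, each time including these 3.

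The other members in day 0 organoids followed no single level. Cd4 had 0.883, 1.31 and 0.603 CPM and Il2rg had 1.2, 1.42 and 1.28 CPM, above all WT libraries and not called. Lck had 3.59, 2.48 and 2.02 CPM, also above all WT libraries, while Lat had 0.208, 0.253 and 0.142 CPM, below all of them, and neither was called (adjusted p = 0.12 for each). Il2rb had 0.676, 0.809 and 0.284 CPM, Pdcd1 0.104, 0.253 and 0.248 CPM and Cd5 0.260, 0.354 and 0.106 CPM, each above all WT libraries. In all, 14 genes lay above and 2, Lat and Cd79b, below every WT library, a count that was not made over all genes. Of the NK receptors and the other granule genes in day 0 organoids, Klrk1 had 0.156, 0 and 0.248 CPM, Klrd1 0.0520, 0.202 and 0.0710 CPM, Klrb1c 0.104, 0.253 and 0.106 CPM, Nkg7 0.104, 0.404 and 0.213 CPM, and Gzma 0.0520, 0.101 and 0.142 CPM. Klrk1 and Klrb1c overlapped with WT organoids, and Klrd1, Nkg7 and Gzma lay above them. Cd8b1 had 0.260, 0 and 0 CPM, Cd6 0.0520, 0.202 and 0.142 CPM, Cd28 0.208, 0.202 and 0.106 CPM, and Zap70 0.208, 0.303 and 0.177 CPM. The transcription factors had at most 0.253 CPM, with 0.0520, 0.202 and 0 CPM for Eomes, 0.0520, 0 and 0.0710 CPM for Tbx21 and 0.104, 0.253 and 0.177 CPM for Foxp3. The B cell genes were as low, with 0.104, 0.303 and 0.142 CPM for Cd79a, 0.208, 0.152 and 0 CPM for Cd79b and 0, 0 and 0.0355 CPM for Blk. Eomes, Tbx21, Foxp3 and Blk overlapped with WT organoids. In these libraries 4 of 4 tested red blood cell markers, 2 of 14 macrophage markers and 1 of 8 dendritic cell markers were also higher than in WT organoids. Endothelial markers, none of them called, summed to 118, 146 and 246 CPM in day 0 organoids, against 13.1, 65.8 and 63.0 CPM in WT organoids. The part of these cells in the result was not tested. Of the other lymphocyte lists, 2 of 11 NK genes (Cd7 and Xcl1) and 2 of 14 constant region genes (Ighm and Tcrg-C2) were higher, 1 of 24 T cell genes (Cd27) was lower, and of 13 B cell genes Blnk was higher and Pou2af1 and Spib lower.

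Set against the sections of the same tumor model, day 0 organoids had lower values for 31 of the 33 genes, with a median log2 fold change of -1.73 (all genes -0.02). None of these differences was called by edgeR or by DESeq2, against 0.428% of all genes called higher and 0.016% called lower; 5 passed an unadjusted p under 0.05. In 12 genes all day 0 libraries lay below all PyMT sections, a count that was not made over all genes. Klrd1 had 7 reads in day 0 organoids and 93 in PyMT sections, Icos 2 and 23, Il2rb 37 and 224, and Lat 13 and 67. The 2 genes whose value was above 0 were Cd247 (82 and 34 reads) and Cd79a (12 and 14 reads).

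After 6 days of culture most T and NK cell genes of PyMT organoids had few reads or none. No gene of the 33 was called in 6 day PyMT organoids (day 6 and undated, weighted equally) against WT organoids, by edgeR or by DESeq2; 1.4% of all genes were higher and 2.49% lower, and 2 of the 33 passed an unadjusted p under 0.05. The median log2 fold change was 0.07 (all genes 0.01). The granule genes Nkg7, Gzma, Gzmb and Prf1 and the NK receptors Ncr1, Klrk1 and Klrd1 had no read in any 6 day PyMT library except the one labelled day 6 replicate 3. That library held 0.427 CPM of Nkg7, 0.311 of Gzma, 1.36 of Gzmb, 0.272 of Ncr1, 0.427 of Klrk1 and 0.621 of Klrd1, and no read of Prf1. Lck had 2.06, 1.67 and 1.59 CPM in day 6 and 1.81 and 1.07 CPM in undated PyMT organoids, against 1.14, 1.58 and 1.17 CPM in WT organoids, and thus did not separate them. Without the library labelled day 6 replicate 3, Cd4 and Cd79b were called lower in 6 day PyMT organoids.

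By role, in the order day 6 and then undated, the T cell receptor genes had 0, 0, 0.543, 0.0335 and 0 CPM for Cd3g, 0, 0, 0.116, 0.0335 and 0 CPM for Cd3d, and 0.0542, 0.137, 0.660, 0 and 0.0368 CPM for Cd247. Cd4 had 0, 0.0341, 1.67, 0.0671 and 0.0368 CPM, Cd8a had reads in day 6 replicate 3 alone (0.466 CPM), and Cd8b1 had 0, 0, 0.116, 0 and 0.0368 CPM. The third day 6 value was the highest of the 5 in each of these genes. Among the surface receptors Cd5 had 0.108, 0.205, 0.116, 0 and 0 CPM, Cd6 0, 0.0341, 0.155, 0 and 0.0368 CPM, Pdcd1 0, 0, 0.155, 0.0335 and 0 CPM, and Cd28 0, 0, 0.0388, 0.101 and 0 CPM. Zap70 had 0.163, 0, 0.0776, 0.235 and 0.258 CPM and Lat 0.380, 0.581, 0.272, 0.168 and 0.111 CPM. In Cd5, Cd28, Zap70, Lat and Lck day 6 replicate 3 was not the highest library. Cd79a had 0.108, 0.102, 0.116, 0.134 and 0.0368 CPM, Cd79b 0, 0, 0.505, 0 and 0.0737 CPM, and Blk 1 read in day 6 replicate 3 alone. Klrb1c had 0.108, 0, 0.272, 0.0335 and 0.111 CPM, Eomes 0.0542, 0.0341, 0.155, 0 and 0.0737 CPM, Tbx21 0, 0, 0.116, 0.0671 and 0.0368 CPM, and Foxp3 0.380, 0.342, 0.0776, 0.101 and 0.111 CPM. Il2rb had 0.108, 0.0341, 0.699, 0.0335 and 0 CPM and Il2rg 0.0542, 0.137, 1.2, 0.470 and 0.368 CPM.

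Against day 0, the day 6 PyMT organoids had lower values in 25 of 33 genes, with a median log2 fold change of -0.69 (all genes 0.04). None was called by edgeR or by DESeq2, against 0.166% of all genes called higher and 0.46% called lower, and 1 passed an unadjusted p under 0.05. Same-numbered libraries deviated together over all tested genes, and the fit with the replicate number as a block also called 0. Gzmb had 0, 0 and 1.36 CPM on day 6, against 1.98, 1.57 and 0.887 CPM on day 0, so that 2 of the 3 day 6 libraries held no read and the third lay within the day 0 range. Without the library labelled day 6 replicate 3, the genes Cd4, Cd8a, Gzmb and Il2rg were called lower on day 6.

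Neu-NDL organoids, cultured for 6 days like the WT organoids, held reads of Cd4, Cd28, Il2rg and Lat in every library but hardly any of CD3 or CD8. None of the 33 genes was called against WT organoids by edgeR; 2.47% of all genes were higher and 2.06% lower, 3 of the 33 passed an unadjusted p under 0.05, and DESeq2 called Cd4 and Il2rg higher. The median log2 fold change was 0.74 (all genes 0.02). Cd4 had 2.65, 1.43 and 1.73 CPM in Neu-NDL organoids, against 0.155, 0.256 and 0.369 CPM in WT organoids (log2 fold change 2.89 ± 1.05, edgeR adjusted p = 0.12). Il2rg had 4.12, 3.23 and 0.866 CPM in Neu-NDL organoids, against 0.336, 0.363 and 0.584 CPM in WT organoids (2.67 ± 0.84, adjusted p = 0.077). Both genes lay above all WT libraries in all 3 Neu-NDL libraries. Cd3g had 0.0606, 0.0281 and 0.0722 CPM, Cd3d 0.0202, 0 and 0.0241 CPM, and Cd8a 0.0202, 0.0281 and 0.0962 CPM in Neu-NDL organoids, which is 1 to 4 reads or none in each library.

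Against 6 day PyMT organoids, Cd4, Cd28 and Il2rg were higher in Neu-NDL organoids, 3 of 33, where 4.7% of all genes were called higher and 2.42% lower; none of the 33 was lower, and 6 passed an unadjusted p under 0.05. Cd4 had 254 reads in Neu-NDL organoids and 47 in 6 day PyMT organoids, of which 43 were in the library labelled day 6 replicate 3 (log2 fold change 3.42 ± 0.97, edgeR adjusted p = 0.044). Cd28 had 0.565, 0.309 and 0.313 CPM in Neu-NDL organoids, against 0, 0 and 0.0388 CPM in day 6 and 0.101 and 0 CPM in undated PyMT organoids (3.67 ± 1.03, adjusted p = 0.043), and the groups did not overlap. Il2rg had 355 reads in Neu-NDL organoids and 60 in 6 day PyMT organoids (2.61 ± 0.72, adjusted p = 0.041), and overlapped through Neu-NDL replicate 3. All 3 calls were lost in the fit of the compared libraries alone and against either PyMT set alone. They were also lost without Neu-NDL replicate 1 or 2 and without undated replicate 1 or 2. Only Cd4 kept its call without day 6 replicate 1 or 2, only Il2rg without Neu-NDL replicate 3, and 4 genes were called without day 6 replicate 3.

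The remaining genes of Neu-NDL organoids varied between the libraries. Cd79b had 5.98, 0.0843 and 0.409 CPM, so that replicate 1 held 296 of its 316 reads and the others lay below or within the WT values of 0.213 to 2.55 CPM. Fibroblast markers summed to 2807, 150 and 186 CPM in the same libraries, and their part in the result was not tested. Cd79a had 0.363, 0.0562 and 0.193 CPM and Blk 0.182, 0.0562 and 0.0241 CPM, also highest in replicate 1. Lat had 1.13, 0.562 and 0.433 CPM, Lck 1.35, 0.759 and 0.914 CPM, and Zap70 0.162, 0.113 and 0.120 CPM. Lck lay within or below the WT range of 1.14 to 1.58 CPM in each of them. Cd247 had 0.141, 0.141 and 0.0962 CPM, Cd8b1 0.0202, 0 and 0 CPM, Cd5 0.363, 0.0843 and 0.144 CPM, Cd6 0.0606, 0.0281 and 0.0481 CPM, and Pdcd1 0.0404, 0 and 0.0241 CPM. Of the NK and granule genes, Klrb1c had 0.121, 0.422 and 0.0481 CPM, Klrk1 0.0202, 0.309 and 0.0962 CPM, Klrd1 0.101, 0 and 0.0962 CPM, and Nkg7 and Ncr1 had no read. Gzma and Gzmb each had 0.0404, 0 and 0.0241 CPM. Eomes had 0.0202, 0 and 0.0241 CPM, Tbx21 0.0404, 0.0281 and 0.0241 CPM, Foxp3 0.162, 0.113 and 0.289 CPM, and Il2rb 0.202, 0.0562 and 0.0962 CPM.

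Macrophage markers were high in the same Neu-NDL libraries, summing to 521 to 2197 CPM, against 101 to 737 CPM in day 6 and 225 to 281 CPM in undated PyMT organoids and 185 to 295 CPM in WT organoids. Of the 14 markers, 8 were higher than in 6 day PyMT organoids and 4 higher than in WT organoids; Csf1r, the CSF1 receptor of macrophages, had 3884, 2624 and 1304 reads in Neu-NDL organoids. The part of these cells in the levels of Cd4, Il2rg, Lat and Cd79b was not tested. Of other lymphocyte genes, Ptprc (3.52 ± 0.85), Il7r (3.77 ± 0.85), a cytokine receptor, Cd37 (3.07 ± 0.67), a tetraspanin of B cells and macrophages, Btk (3.22 ± 0.84), a kinase of both, and Styk1 (1.48 ± 0.35) were among those higher than in 6 day PyMT organoids. In all, 3 of 24 T cell, 3 of 13 B cell and 1 of 11 NK genes were higher, and 2, 1 and 1 were lower. Those lower included Tcf7 (-2.70 ± 0.72), a factor of T cells and Wnt signalling, and Itga2 (-2.41 ± 0.58). Against WT organoids no T cell gene, 1 B cell gene (Cd37, 3.49 ± 0.80) and no NK gene was higher, and Spib (-4.01 ± 0.90) and Itga2 (-2.43 ± 0.62) were lower. No constant region gene was called in either comparison. Of 3 tested markers of lymph node stroma and vessels, Cxcl13 and Fcgr2b, which macrophages also make, were higher than in 6 day PyMT organoids, and Fcgr2b higher than in WT organoids.

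**Figure D4:**
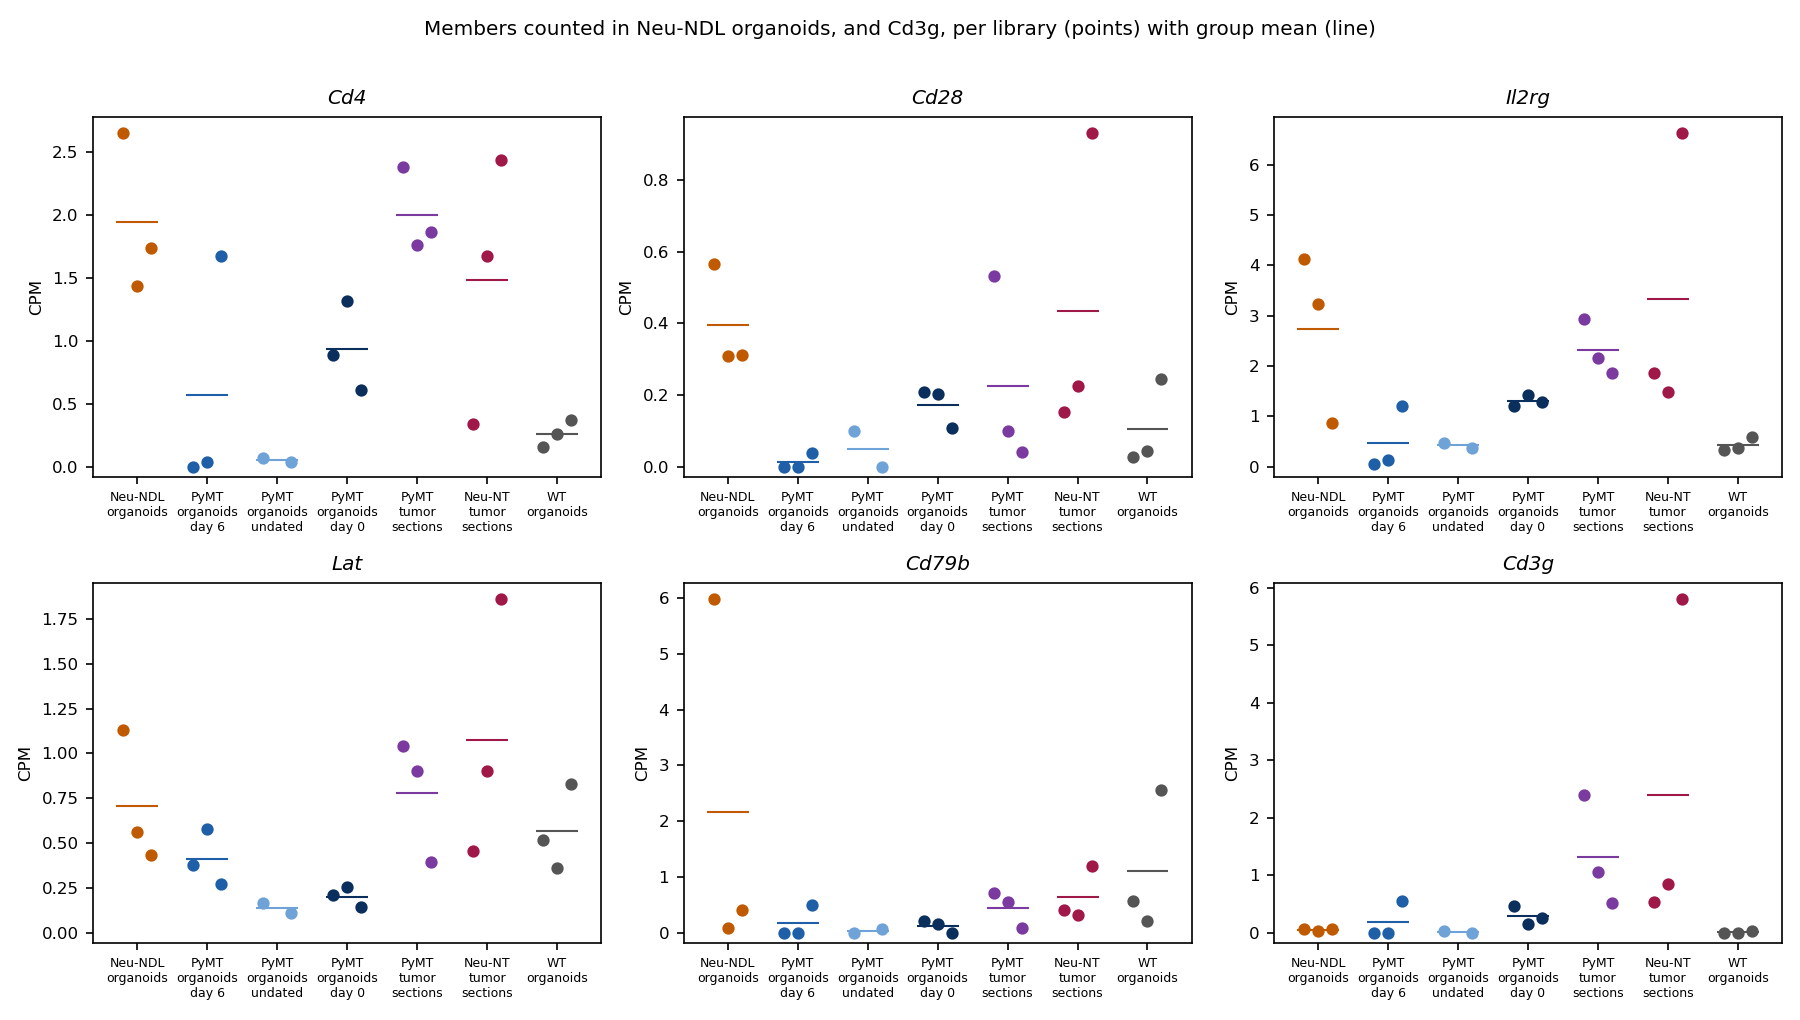
CPM per library (points, replicates in order) and group mean (lines) for Cd4, Cd28, Il2rg, Lat, Cd79b and Cd3g in the 7 groups; each panel has its own axis. Neu-NDL organoids reach the level of the sections in Cd4 (1.43 to 2.65 CPM) while Cd3g stays at 0.0281 to 0.0722 CPM there, and the highest Cd79b level, 5.98 CPM, is that of Neu-NDL replicate 1.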

How the data were processed

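Per the labels' protocols, TRIzol RNA was selected for polyadenylated transcripts and prepared with TruSeq. The submitters' processing notes name mm10 and, with no version, STAR, HTSeq, DESeq2, FastQC and CASAVA; the annotation release, strand setting and counting mode are not given in the sources used here. The deposited values are raw counts of reads per gene, 1 table per library, with 45318 Ensembl gene IDs; 44585 were matched to a symbol. The 5 rows that name no gene were left out; they held 4.77 to 10.75% (outside genes), 4.04 to 6.54% (ambiguous) and 10.72 to 16.26% (several alignments) of the reads.

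Libraries were grouped by their titles. From the deposited counts, edgeR 4.0.16 (R 4.3.3) fitted 1 quasi-likelihood model with 7 group means to all 20 libraries (TMM scaling, filterByExpr, robust dispersion, 13 residual degrees of freedom), and 18698 genes passed the filter. A gene was called at p under 0.05 after Benjamini-Hochberg adjustment over all genes tested. SE is the log2 fold change over the square root of F. CPM are deposited counts scaled to TMM library sizes; log2 CPM used a prior count of 2. With 0 reads in the group compared against, the fold used a floor of 3 reads over the group. With 1 to 3 reads in either group, the fold is the ratio of summed reads, scaled to TMM library sizes, with an exact 95% interval. Intervals and floors cover counting error only, since reads without molecular identifiers are not independent molecules. The tests were tested on simulated data in which only genes with a mean above 1 CPM were changed. Most of the 37 genes lie below that level, so recovery of changes in such sparse genes was not tested.

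The 37 genes, the other gene lists and the tests were chosen with earlier results of these data known. Values in every library were given for up to 3 genes per role with the highest mean CPM and for genes called in a comparison without WT organoids; from each other lymphocyte list, up to 3 called genes with the highest mean CPM served as examples, and further names were added after their values were seen. Nothing in the labels says that replicates came from separate animals, so p-values measure only the spread between these libraries. Same-numbered day 6 and day 0 PyMT libraries deviated together (r = 0.287, 0.428 and 0.317 over genes), which alone does not show that they are pairs. In no other comparison were all such correlations above 0.1. Alternatives were DESeq2 1.42.0, its size factors, no filter, only the compared libraries, a replicate block, each library left out, and both libraries that stand apart left out. For comparisons with Neu-NT sections, Neu-NT replicates 1 and 2 were also summed. For those with 6 day PyMT organoids, the day 6 or the undated libraries were also used alone. For day 6 against day 0, the block was also fitted to the compared libraries only. Positions are from GENCODE M21 (GRCm38) and promoter sequences from RefSeq (GRCm38.p6).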

Additional observations from a re-analysis of the deposited data

Results flagged for a closer look

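Among the 5 PyMT organoid libraries cultured for 6 days, 1 library lay far from the others in the summed level and in 20 of the 34 genes that had a read there: the gap to the next library was over 0.71 of the whole range, and in all 20 genes and the sum the far library was the one labelled PyMT organoids day 6 replicate 3. Chance gives such a gap in about 1 of 20 groups of normally distributed values. That share does not hold for sparse counts: where the other 4 libraries had no read, a single read makes the gap the whole range, as for Blk. Genes of 1 library are also not independent. The gap was looked for only in the 37 genes and their sum, so no share over all genes stands beside the 20. The summed level was 13.51 CPM in that library, against 2.51 to 3.85 CPM in the others. For the T cell receptor genes it held 0.2717 CPM of Cd3e, 0.1164 of Cd3d, 0.5434 of Cd3g and 0.6599 of Cd247, and for the coreceptors 1.669 CPM of Cd4 and 0.4658 of Cd8a. For the surface receptors and the adaptor it held 0.2329 CPM of Cd2, 0.1553 of Cd6, 0.07763 of Icos, 0.1553 of Pdcd1 and 0.2329 of Sh2d2a, and for the B cell genes 0.5046 CPM of Cd79b and 0.03881 of Blk. The NK and granule genes had 0.2717 CPM of Ncr1, 0.427 of Klrk1, 0.621 of Klrd1, 0.427 of Nkg7, 0.3105 of Gzma and 1.359 of Gzmb, and Il2rb had 0.6987 CPM. In 11 of these genes the other 4 libraries held no read. Red blood cell markers summed to 118 CPM in this library, fibroblast markers to 2762 CPM and constant region genes to 36.8 CPM, against at most 0.705, 167 and 2.97 CPM in the other 4, and the cause was not tested.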

How the results depend on the processing

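No called gene changed sign: of 496 values of called genes under the alternatives, 338 kept their call and 158 lost it. The shares of all genes called under the alternatives are not given, so a change in the counts below need not be particular to these genes. With only the compared libraries, 9 genes were higher in PyMT sections and 8 in Neu-NT sections than in WT organoids, 2 in Neu-NDL organoids, 1 (Lat) was lower in day 0 organoids, and 0 were higher in Neu-NDL than in 6 day PyMT organoids; in these fits 13, 14, 6, 5 and 8 of the 37 genes passed the filter. With 1 library left out, calls ranged from 0 to 12 for PyMT sections, 7 to 21 for Neu-NT sections and 0 to 1 for day 0 organoids, each higher against WT; from 0 to 2 lower in 6 day PyMT organoids against WT; from 0 to 4 lower on day 6 against day 0; and from 0 to 4 higher in Neu-NDL against 6 day PyMT organoids. DESeq2 called 2 genes higher in Neu-NDL and 7 in day 0 organoids than in WT. Without both libraries that stand apart, 2 were higher in Neu-NDL organoids (Cd4 and Il2rg) and 12 in day 0 organoids, and 2 lower in 6 day PyMT organoids, against WT; 7 were lower on day 6 than on day 0, and 6 were higher in Neu-NDL than in 6 day PyMT organoids. For that last comparison the count was 1 with no filter and 0 with the day 6 or the undated libraries alone. The cause was not tested.

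With the replicate number as a block, 13 genes were higher in PyMT sections, 20 in Neu-NT sections and 3 in day 0 organoids than in WT, 3 in Neu-NDL than in 6 day PyMT organoids, and 0 in each other comparison; the block moved no count by over 1.5 times. Groups of 2 or 3 libraries and levels of a few reads limit what could be called.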
